A study of Mus musculus with 40 samples.

Results

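The genes described here are the NF-kB subunits and the proteins that hold NF-kB back, measured in B cells from the spleens of wild-type mice and of mice lacking Dock10. Members were the genes Nfkb1, Nfkb2, Rel, Rela, Relb, Nfkbia, Nfkbib, Nfkbie, Nfkbiz and Tnfaip3, taken wherever the array annotation gives 1 of these symbols to a probe. Of the 10 listed genes, 9 had a probe, 13 probes in all, among 21892 genes; Nfkb1 is not analysed here. Relb and Nfkbib were each read by 3 probes, which were averaged, and the other 7 genes by 1 probe each.

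NF-kB is a family of transcription factors that act as paired subunits. Rel (c-Rel), Rela (p65) and Relb carry an activation domain, whereas Nfkb2 makes the precursor p100, which is cut to p52 and pairs mainly with Relb in the non-canonical pathway. In resting cells the inhibitors Nfkbia (IkB-alpha), Nfkbib (IkB-beta) and Nfkbie (IkB-epsilon) hold dimers in the cytoplasm until the IKK kinases mark them for destruction. Nfkbiz (IkB-zeta) is an atypical nuclear member of the inhibitor family that also acts as a co-activator, and Tnfaip3 (A20) is a ubiquitin-editing enzyme that ends signalling from receptors to IKK. B cells depend on these factors for survival and for their response to antigen, CD40 and BAFF, and several of the genes are themselves NF-kB targets.

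All mice were C57BL/6 and 12 weeks old, and their B cells had been isolated by negative selection. Cells lysed before culture came from 10 wild-type mice (WT_Pre) and 10 Dock10 knockout mice (KO_Pre); the labels do not describe the knockout allele. Cells of the mice numbered 6 to 10 of each genotype were also kept for 18 h without stimulus (WT_Ctrl and KO_Ctrl) or with 10 ng/ml of IL-4 (WT_IL4 and KO_IL4), with 5 mice in each of these 4 groups. Each of the 40 arrays set a sample against the same reference, described as a pool of RNA from KO_Pre samples 6 to 10. A level below is therefore the deposited log2 ratio of a sample to that pool, and it orders samples for a gene, not genes. Unless stated otherwise, a difference is a log2 difference between group means with its standard error (SE), and a gene is called when the Benjamini-Hochberg adjusted p of limma over all 21892 genes is under 0.05. Whether the groups of a gene overlap is a description only, since the share of all genes whose groups lie apart is not given.

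A few facts of the arrays touch these results. The probe of Dock10 itself differed in knockout cells by -0.38 before culture, which was not called, by -0.54 without IL-4 (adjusted p = 0.0295) and by -1.07 with IL-4 (adjusted p = 0.000223). Whether it lies in the deleted part is not given in the sources used here, so it checks the labels only in part. Of the 20 arrays before culture, those numbered 1 to 4 and 10 in both genotypes had log2 ratios of Xist of 4.74 to 5.92, against -1.59 to 0.854 in the other 30 arrays, among them the cultured arrays numbered 10. KO_Pre array 10 was among the high ones, at 4.99. An equal share of its sample in the reference pool would not give so high a ratio, so the make-up of the pool is given only as described. Eif2s3y, a gene of the Y chromosome, was at -11.136 to -10.096 in the 10 high Xist arrays and at -0.154 to 0.678 in the other 30. By both genes the high Xist arrays hold female cells and the others male cells, so KO_Pre against WT_Pre mixes the sexes in both genotypes. Arrays numbered 10 before and after culture differ in sex and thus go against their shared number. Culture changes given for mouse 10 cannot be taken to follow 1 animal. Changes given for other mice follow the numbers in the labels, which a check given with the processing bore out only in part. Results that use these arrays are also given without the arrays before culture numbered 10. The median of all genes moved by -0.15 (WT_Ctrl against WT_Pre), -0.12 (KO_Ctrl against KO_Pre), -0.11 (KO_IL4 against KO_Pre) and 0.12 (WT_IL4 against WT_Ctrl), and the changes of single genes should be read relative to these shifts. The background ratio of an array, from its dark corner controls, was 0.141 to 1.078 in the arrays before culture numbered 6 to 9. It was -0.907 and -0.856 in those numbered 10, and -1.792 to -0.206 in the cultured arrays. All WT_IL4 arrays (-0.767 to -0.206) lay above all WT_Ctrl arrays (-1.288 to -0.818). The ratio thus largely goes with culture and, in wild-type cells, with IL-4. Fits with it as a covariate cannot tell these apart. The 9 measured B cell markers had a mean level of -0.21 ± 0.24 (SD, n = 10) in WT_Pre, -0.16 ± 0.22 (n = 10) in KO_Pre, -0.56 ± 0.19 (n = 5) in WT_Ctrl, -1.18 ± 0.14 in WT_IL4, -1.22 ± 0.13 in KO_Ctrl and -1.37 ± 0.14 in KO_IL4. The mean of the 10 dendritic cell markers went from 0.40 ± 0.19 in WT_Pre to -1.47 ± 0.08 in WT_Ctrl and from 0.14 ± 0.27 in KO_Pre to -1.32 ± 0.06 in KO_Ctrl. In the same order, that of the 9 NK cell markers went from 0.76 ± 0.55 to -1.57 ± 0.38 and from 0.21 ± 0.57 to -1.12 ± 0.41. That of the 4 platelet markers went from 0.17 ± 0.38 to -2.22 ± 0.91 and from 0.15 ± 0.54 to -1.43 ± 0.84. The means of the 13 macrophage and monocyte markers were 0.52 ± 0.64 in WT_Pre and -0.19 ± 0.50 in KO_Pre and lay between -0.96 and -0.40 after culture. Those of the 11 neutrophil markers were 1.45 ± 1.39 and 0.71 ± 1.08 before culture and between -0.78 and -0.20 after it. Those of the 11 T cell markers lay between 0.15 and 0.90 in all groups, and those of the 8 erythroid markers between -0.24 and 0.64. The part these other cells have in the results below was not tested, and in bulk RNA fewer cells of a type and less RNA per cell cannot be told apart.

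Promoters of 4 members are shown first, because several NF-kB genes are known to be controlled by NF-kB. The RefSeq table (build GRCm38.p6) holds windows of 300 bases, 250 before and 50 after an annotated start, for 7 members in 10 windows: Rel, Rela, Nfkb2, Nfkbia, Nfkbib, Nfkbie and Tnfaip3; Relb and Nfkbiz are not shown. Both strands were searched for the NF-kB consensus decamer and for the STAT6 N4 motif (TTC, any 4 bases, GAA); STAT6 is the factor that IL-4 activates. The decamer was present in 7 of the 10 windows, covering 5 of the 7 genes (Rel, Nfkb2, Nfkbia, Nfkbie and Tnfaip3), whereas 8.46% of all 32851 windows and 9.55% of all 27025 genes in the table hold it. Rel, Nfkb2 and Nfkbia are printed as genes that fell in culture in both genotypes, and Tnfaip3 as a gene with a match to either motif; capitals mark every match to the NF-kB decamer, overlapping ones joined, 5′ to 3′ on the strand of the gene.
Rel, chr11:23770920-23771219, minus strand: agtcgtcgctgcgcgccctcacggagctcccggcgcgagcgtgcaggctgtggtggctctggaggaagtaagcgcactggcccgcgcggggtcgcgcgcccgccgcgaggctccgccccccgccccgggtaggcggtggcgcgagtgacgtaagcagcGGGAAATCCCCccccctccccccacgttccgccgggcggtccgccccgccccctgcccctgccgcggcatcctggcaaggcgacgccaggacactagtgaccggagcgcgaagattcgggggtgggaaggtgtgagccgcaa
Nfkb2, first of 3 windows, chr19:46304487-46304786, plus strand: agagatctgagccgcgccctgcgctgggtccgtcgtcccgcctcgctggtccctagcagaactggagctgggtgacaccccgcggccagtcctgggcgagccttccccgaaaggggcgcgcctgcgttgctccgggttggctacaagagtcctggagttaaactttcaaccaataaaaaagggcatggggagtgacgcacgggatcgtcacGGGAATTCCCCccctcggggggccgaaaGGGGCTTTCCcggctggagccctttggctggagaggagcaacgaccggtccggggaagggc
Nfkbia, chr12:55492598-55492897, minus strand: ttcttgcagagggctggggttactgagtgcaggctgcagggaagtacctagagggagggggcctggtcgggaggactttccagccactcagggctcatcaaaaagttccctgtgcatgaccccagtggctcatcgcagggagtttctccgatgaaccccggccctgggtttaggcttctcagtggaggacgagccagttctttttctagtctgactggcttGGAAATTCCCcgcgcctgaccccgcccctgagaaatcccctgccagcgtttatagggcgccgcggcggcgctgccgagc
Tnfaip3, second of 2 windows, chr10:19015361-19015660, minus strand: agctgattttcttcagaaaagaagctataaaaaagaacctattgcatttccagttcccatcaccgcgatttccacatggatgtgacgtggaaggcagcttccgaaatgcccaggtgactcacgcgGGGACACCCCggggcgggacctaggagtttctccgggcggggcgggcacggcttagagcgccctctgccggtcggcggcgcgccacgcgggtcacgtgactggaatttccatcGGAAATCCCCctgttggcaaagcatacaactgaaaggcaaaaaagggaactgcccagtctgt
The stretch in the Rel window is made of 2 overlapping matches that begin 92 bases upstream of the annotated start. The Nfkb2 window holds a similar pair beginning 39 bases upstream and a separate match 11 bases upstream, and the Nfkbia window 1 match beginning 29 bases upstream. The Tnfaip3 window has matches beginning 125 and 12 bases upstream, and it alone among the 10 windows holds the STAT6 N4 motif, beginning 242 bases upstream; 6.95% of all windows hold that motif. The windows of Rela and Nfkbib hold neither motif, which says only that these letters are not in these windows.

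Levels differed most between groups for Rel and Nfkbiz and least for Rela. The largest difference between any 2 group means was 1.93 for Rel, 1.76 for Nfkbiz, 1.21 for Tnfaip3, 1.11 for Nfkb2, 1.04 for Nfkbia, 0.74 for Nfkbie, 0.68 for Relb, 0.36 for Nfkbib and 0.22 for Rela. For Nfkb2 the mean levels ran from WT_Pre (0.01) and KO_Pre (-0.19) to WT_Ctrl (-0.84), WT_IL4 (-0.94), KO_IL4 (-1.0) and KO_Ctrl (-1.10), and only the step from KO_Pre to WT_Ctrl separated neighbours whose ranges did not overlap. For Nfkbiz the order was WT_Pre (-0.03), KO_Pre (-0.04), KO_Ctrl (-0.81), KO_IL4 (-1.18), WT_Ctrl (-1.58) and WT_IL4 (-1.78), again with 1 gap, between KO_Pre and KO_Ctrl. For Rel the order was WT_Pre (0.35), KO_Pre (0.07), WT_IL4 (-0.13), KO_IL4 (-0.42), KO_Ctrl (-1.06) and WT_Ctrl (-1.58), and every pair of neighbours overlapped. Neighbours also overlapped throughout for Nfkbia, which ran from WT_Pre (-0.13) and KO_Pre (-0.19) through WT_Ctrl (-0.56) and KO_Ctrl (-0.86) to KO_IL4 (-1.13) and WT_IL4 (-1.17), and for Tnfaip3, which ran from WT_Pre (0.20), WT_IL4 (-0.08) and KO_Pre (-0.28) to KO_IL4 (-0.75), WT_Ctrl (-0.84) and KO_Ctrl (-1.01). The remaining 4 genes had no separated neighbours either. Nfkbie was lowest in WT_IL4 (-0.83) and had means of -0.45 to -0.09 elsewhere, Relb was highest in KO_Ctrl (0.53) and lowest in KO_Pre (-0.15), Nfkbib was highest in KO_IL4 (0.35) and WT_IL4 (0.34), and the means of Rela lay between -0.52 and -0.30.

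**Figure D1:**
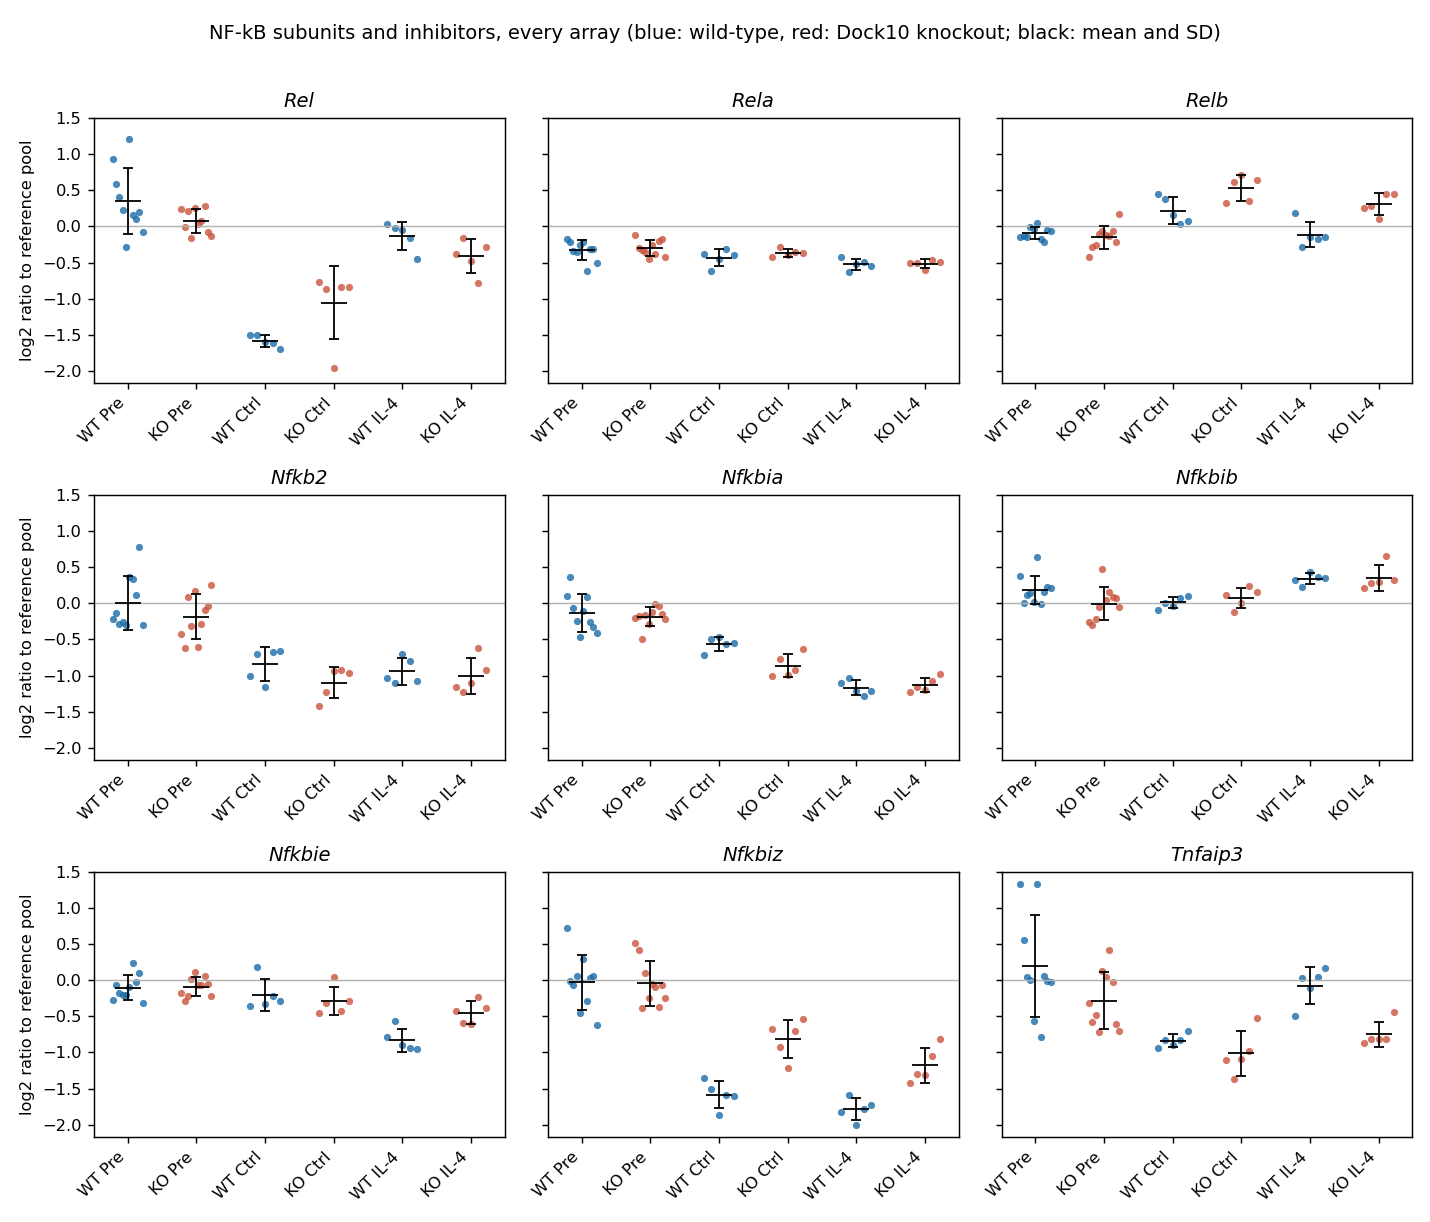
Each panel plots a gene, with the log2 ratio to the reference pool of every array (points, blue for wild-type and red for knockout) in the 6 groups, and the mean and SD in black (n = 10 before culture, n = 5 after). Rel in WT_Ctrl sits between -1.70 and -1.50, and the KO_Ctrl array of mouse 8 at -1.96, away from the other 4 KO_Ctrl arrays.

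Before culture, none of the 9 genes differed between the genotypes by the test used. The comparison of KO_Pre with WT_Pre, 10 arrays each, called 0% of all genes at the threshold, and at an unadjusted p under 0.05 it passed 0 of the 9 members and 892 of all genes (4.07%). Tnfaip3 had the largest difference, -0.48 ± 0.25 (SE, adjusted p = 1.0), with levels of -0.79 to 1.34 (median 0.02) in WT_Pre and -0.71 to 0.42 (median -0.40) in KO_Pre. Rel ranged from -0.29 to 1.21 (median 0.21) in WT_Pre and from -0.16 to 0.29 (median 0.06) in KO_Pre, a difference of -0.28 ± 0.15 (adjusted p = 1.0). Both genotypes overlapped in all 9 genes, and the 2 highest values of Tnfaip3 and the highest of Rel were those of wild-type arrays. Among mice 1 to 5 the difference of Tnfaip3 was -0.67 and among mice 6 to 10 it was -0.28, and those of Nfkb2 were 0.02 and -0.41; no member was called in either set of 5 mice or with the high and low Xist arrays as a block.

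Culture without stimulus lowered 5 of the 9 genes in both genotypes: the subunits Rel and Nfkb2, the inhibitors Nfkbia and Nfkbiz, and Tnfaip3. Relb was higher after culture in both. In wild-type cells these 6 of 9 members were called, against 39.5% of all genes, and the median difference of the members was -0.36 beside -0.15 for all genes; in knockout cells 6 of 9 were called, against 51% of all genes, with medians of -0.64 and -0.12.

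Rel fell furthest. In mice 6 to 10 in that order, wild-type levels were 1.21, 0.16, 0.10, 0.20 and -0.08 before culture and -1.50, -1.50, -1.60, -1.61 and -1.70 after it, a difference of -1.90 ± 0.20, or 3.73-fold lower (adjusted p = 9.98e-08). All 5 cultured arrays lay below every array before culture, and they spread over only 0.08 (SD). Knockout levels of Rel were 0.03, 0.08, 0.29, -0.08 and -0.13 before and -0.77, -0.87, -1.96, -0.84 and -0.84 after culture, a difference of -1.09 ± 0.20, or 2.13-fold (adjusted p = 8.65e-05). The groups did not overlap here either, and the array of mouse 8 stood apart from its group. Nfkb2, whose product p100 is both a precursor and an inhibitor, fell in both genotypes. In wild-type cells it went from 0.36, 0.34, 0.11, 0.78 and -0.30 to -1.01, -0.70, -1.16, -0.67 and -0.66 (-1.10 ± 0.17, 2.14-fold lower, adjusted p = 2.53e-05). In knockout cells it went from -0.60, -0.29, -0.09, -0.03 and 0.25 to -1.42, -1.23, -0.94, -0.93 and -0.97 (-0.95 ± 0.17, adjusted p = 6.09e-05). No cultured array reached the level of an array before culture in either genotype. Rela, the partner subunit of the classical dimer, differed by -0.04 ± 0.08 in wild-type and -0.07 ± 0.08 in knockout cells (adjusted p = 0.739 and 0.446), and its 5 mice went both ways; after quantile normalization it was called higher in both, by 0.39 and 0.37 (adjusted p = 0.0169 and 0.0183).

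Among the inhibitors, Nfkbiz fell in wild-type cells from 0.29, -0.29, 0.03, 0.06 and -0.62 to -1.36, -1.50, -1.86, -1.59 and -1.61 (-1.48 ± 0.15, 2.78-fold lower, adjusted p = 3.82e-08). Its knockout levels fell from -0.05, -0.10, -0.37, -0.06 and -0.25 to -0.68, -0.92, -1.21, -0.70 and -0.54 (-0.64 ± 0.15, 1.56-fold, adjusted p = 0.000885). The groups were apart in both genotypes, and the knockout cells stopped at a higher level. Nfkbia, the inhibitor that NF-kB itself induces, fell in both genotypes as well. It went from -0.11, 0.09, -0.26, -0.33 and -0.41 to -0.72, -0.50, -0.47, -0.56 and -0.55 in wild-type cells (-0.36 ± 0.09, 1.28-fold lower, adjusted p = 0.00374). In knockout cells it went from -0.12, -0.01, -0.04, -0.15 and -0.21 to -1.01, -0.77, -0.99, -0.92 and -0.63 (-0.76 ± 0.09, 1.69-fold, adjusted p = 2.4e-07), again without overlap. The wild-type call of Nfkbia ended with median centring, quantile normalization or the background ratio of the array (its dark corner controls) as a covariate. Tnfaip3 fell by 0.96 ± 0.25 in wild-type (adjusted p = 0.00446) and by 0.84 ± 0.25 in knockout cells (adjusted p = 0.00718). Here the groups overlapped, since wild-type mouse 7 started at -0.79 and ended at -0.83 and knockout mouse 10 went from -0.70 to -0.52. Nfkbib and Nfkbie were not called in either genotype, with differences of -0.23 and 0.01 (Nfkbib) and -0.18 and -0.22 (Nfkbie). In wild-type cells quantile normalization and the dark corner covariate also ended the call of Tnfaip3. In knockout cells quantile normalization ended those of Nfkb2, Nfkbiz and Tnfaip3, and the dark corner covariate those of Rel, Relb, Nfkbiz and Tnfaip3. The wild-type call of Relb was lost with the dark corner covariate, in a fit of the compared groups alone, and without WT_Pre array 7 or 8 or WT_Ctrl array 6 or 7 (adjusted p of 0.0537 to 0.0789 for these arrays). Without WT_Pre array 7 Nfkbib was called in wild-type cells (-0.29, adjusted p = 0.0271), and without KO_Ctrl array 8 Nfkbie was called in knockout cells (-0.30, adjusted p = 0.0395).

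**Figure D2:**
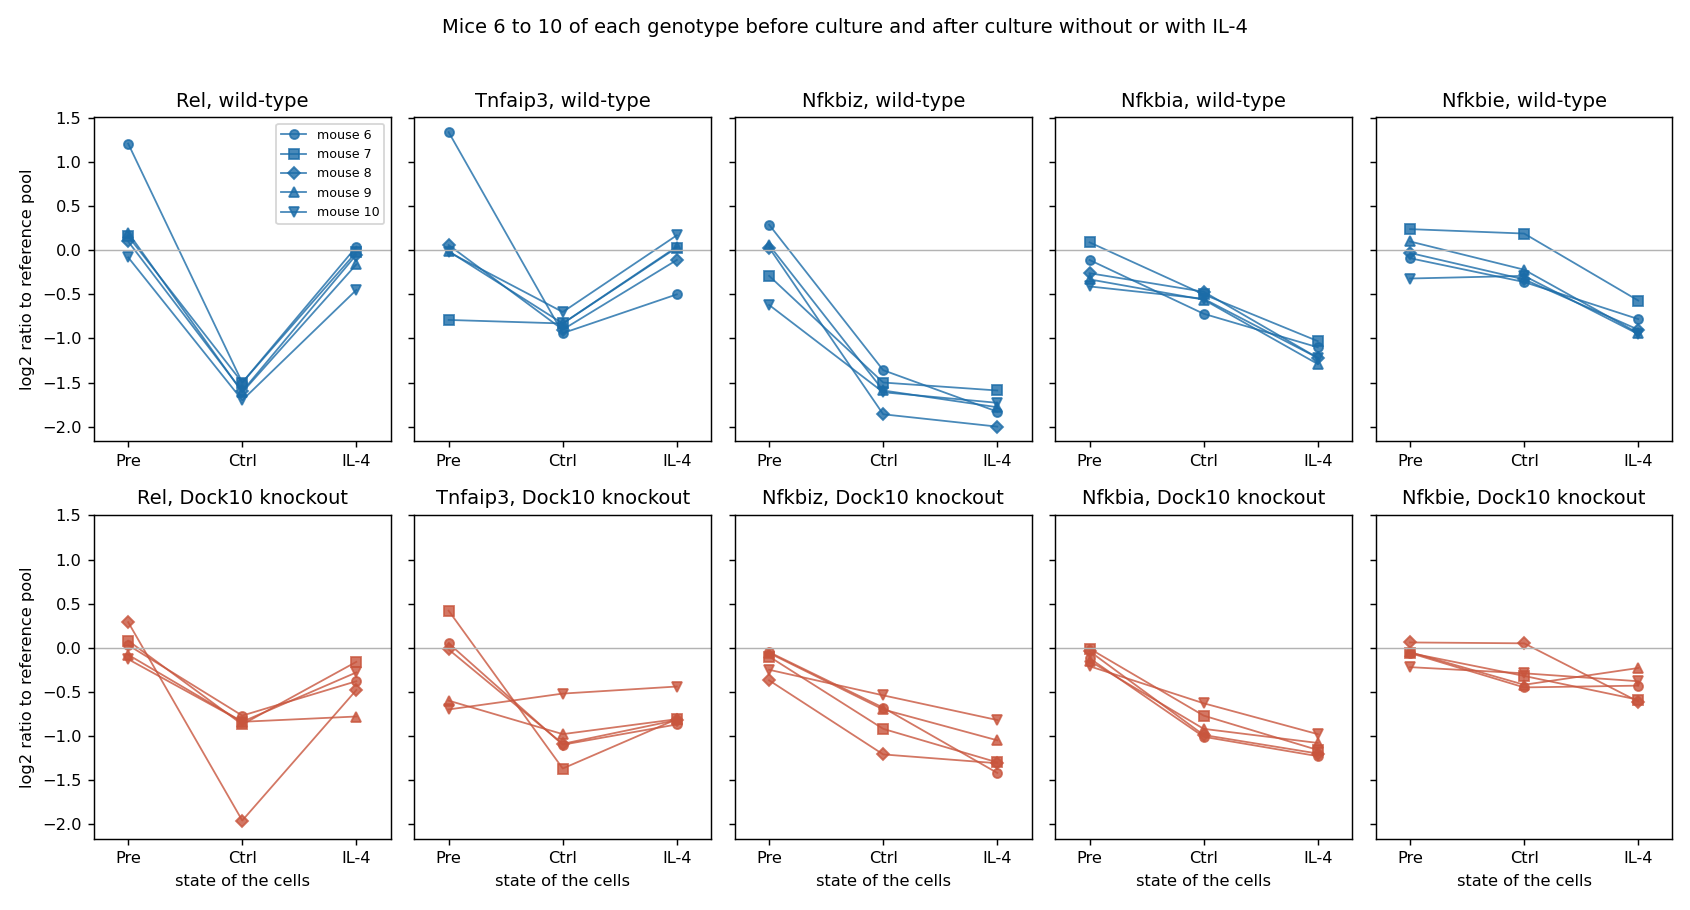
Lines join the log2 ratios of each mouse numbered 6 to 10 before culture (Pre), after culture without stimulus (Ctrl) and with IL-4, for 5 genes in wild-type (blue, top) and knockout cells (red, bottom). Rel drops along all 10 lines and is higher with IL-4 along all 10, whereas Nfkbiz and Nfkbia are lower with IL-4 than without along all 10. Lines numbered 10 join arrays before culture with high Xist to cultured arrays with low Xist.

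The fall of Nfkbiz in culture was smaller without Dock10, and this was the only member for which the difference between the genotypes' culture effects was called (0.83 ± 0.21, knockout minus wild-type, adjusted p = 0.0146; 0.0586 among genes with an SD above the median), while 6.68% of all genes were called. By mouse number, 6 to 10 in order, the change was -1.65, -1.21, -1.89, -1.64 and -0.99 in wild-type and -0.62, -0.82, -0.84, -0.64 and -0.29 in knockout cells. The smallest wild-type fall thus exceeded the largest knockout fall, although the arrays numbered 10 differ in sex before and after culture. Nfkbia had a difference of the opposite sign that missed the threshold (-0.40 ± 0.13, adjusted p = 0.0648) and was called without WT_Pre array 7 (-0.47, adjusted p = 0.0167), WT_Ctrl array 6 (-0.44, 0.0363), KO_Pre array 10 (-0.43, 0.0492) or KO_Ctrl array 10 (-0.46, 0.0345). Rel differed by 0.81 ± 0.29 (adjusted p = 0.0999) and, without the KO_Ctrl array of mouse 8, by 1.03 ± 0.24 (adjusted p = 0.00795). Without the arrays before culture numbered 10, the difference of Nfkbiz was 0.94 (adjusted p = 0.00482), and those of Rel and Nfkbia were 0.86 and -0.37 (adjusted p = 0.0898 for each). The counts of 6, 6 and 1 members called for culture in wild-type cells, in knockout cells and for their difference stayed at 6, 6 and 1.

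IL-4 during culture raised Rel, Tnfaip3 and Nfkbib and lowered Nfkbia, Nfkbie and Relb in wild-type cells. These 6 of 9 members compare with 26.9% of all genes called; the median difference of the members was -0.10, and that of all genes 0.12. Rel went from the -1.70 to -1.50 given above to 0.04, -0.02, -0.05, -0.16 and -0.45 in mice 6 to 10, 1.45 ± 0.20 higher, or 2.73-fold (adjusted p = 7.38e-06). Every mouse gained between 1.25 and 1.55, the groups did not overlap, and the call held in all 22 alternatives run for it. Tnfaip3 went from -0.94, -0.83, -0.90, -0.83 and -0.70 to -0.50, 0.03, -0.11, 0.04 and 0.17 (0.76 ± 0.25, 1.70-fold higher, adjusted p = 0.0266), higher in 5 of 5 mice and without overlap. With the mouse as a block its adjusted p was 0.0511, and it was 0.0506, 0.0519 and 0.0590 without WT_IL4 array 7, 9 or 10. Nfkbib, an inhibitor that binds its dimers longer than IkB-alpha does, went from -0.09, 0.01, -0.03, 0.08 and 0.10 to 0.32, 0.23, 0.44, 0.37 and 0.35 (0.33 ± 0.10, 1.26-fold higher, adjusted p = 0.0163). The calls of Tnfaip3, Nfkbib and Relb ended with quantile normalization and with the dark corner covariate.

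Nfkbia and Nfkbie went down with IL-4. Nfkbia, already lowered by culture, fell further from between -0.72 and -0.47 to -1.10, -1.03, -1.22, -1.29 and -1.22 (-0.61 ± 0.09, 1.53-fold lower, adjusted p = 1.91e-05). Nfkbie levels were -0.36, 0.19, -0.33, -0.22 and -0.29 without and -0.78, -0.57, -0.90, -0.94 and -0.95 with IL-4 (-0.63 ± 0.12, 1.54-fold lower, adjusted p = 0.000305). Neither gene's groups overlapped, and all 5 mice moved down in both. Relb was lower by 0.33 ± 0.11 (adjusted p = 0.0234), a call that rests on 1 of its probes, as described further on, and that was lost without WT_Ctrl array 6 (adjusted p = 0.0719), WT_Ctrl array 7 (0.0660) or WT_IL4 array 7 (0.0634). Nfkbiz (-0.20 ± 0.15), Nfkb2 (-0.10 ± 0.17) and Rela (-0.09 ± 0.08) were not called, with adjusted p of 0.327, 0.680 and 0.407. The mean of the B cell marker list also differed between these groups, with 4 of its 9 genes called lower. Other lists moved too: 4 of 9 NK cell markers were called higher and 1 lower. Of 13 macrophage and monocyte markers 1 was higher and 5 lower, and of 10 dendritic cell markers 1 higher and 3 lower. The mean of the NK cell markers was -1.57 ± 0.38 (SD) in WT_Ctrl and -0.61 ± 0.25 in WT_IL4.

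In knockout cells limma called none of the 9 members for IL-4, against 8.4% of all genes, although 5 members and 4729 of all genes (21.6%) had an unadjusted p under 0.05. The median difference of the members was -0.15, and that of all genes 0.02. Rel was nearest to the threshold: with IL-4 its levels were -0.38, -0.16, -0.48, -0.78 and -0.28, higher than without it in 5 of 5 mice, by 0.39, 0.71, 1.48, 0.05 and 0.56 (0.64 ± 0.20, adjusted p = 0.0505). With the mouse as a block its adjusted p was 0.0446, and without KO_Ctrl array 6 or KO_IL4 array 9 it was 0.0389 or 0.0332. The 1.48 of mouse 8 starts from the low array noted above. Nfkbia was lower in 5 of 5 knockout mice, by 0.16 to 0.39 (-0.27 ± 0.09, adjusted p = 0.0749), and Nfkbib higher in 5 of 5 (0.28 ± 0.10, adjusted p = 0.0922). Nfkbiz was lower in 5 of 5 (-0.37 ± 0.15, adjusted p = 0.135) and was called without KO_Ctrl array 8 (-0.47, adjusted p = 0.0492). Tnfaip3 differed by 0.26 ± 0.25 (adjusted p = 0.590) and Nfkbie by -0.16 ± 0.12 (adjusted p = 0.457). The knockout groups of Rela did not overlap, but its difference of -0.15 ± 0.08 was not called (adjusted p = 0.270). The share of all genes whose groups lie apart is not given here, so this separation is only a description.

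That IL-4 passed the threshold for 6 members in wild-type and for none in knockout cells does not show that its effects differ. The test of the difference itself, the IL-4 effect in knockout minus that in wild-type cells, called none of the 9 members and 1.19% of all genes; 3 members and 3569 genes (16.3%) had an unadjusted p under 0.05. These 3 were Rel (-0.81 ± 0.29, adjusted p = 0.154), Nfkbie (0.46 ± 0.17, 0.165) and Nfkbia (0.35 ± 0.13, 0.179), each with a smaller estimate in knockout cells. Without the KO_Ctrl array of mouse 8, Rel (-1.04 ± 0.24, adjusted p = 0.0111) and Nfkbie (0.54 ± 0.16, adjusted p = 0.0459) were called. Tnfaip3 differed by -0.50 ± 0.36 (adjusted p = 0.505).

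**Figure D3:**
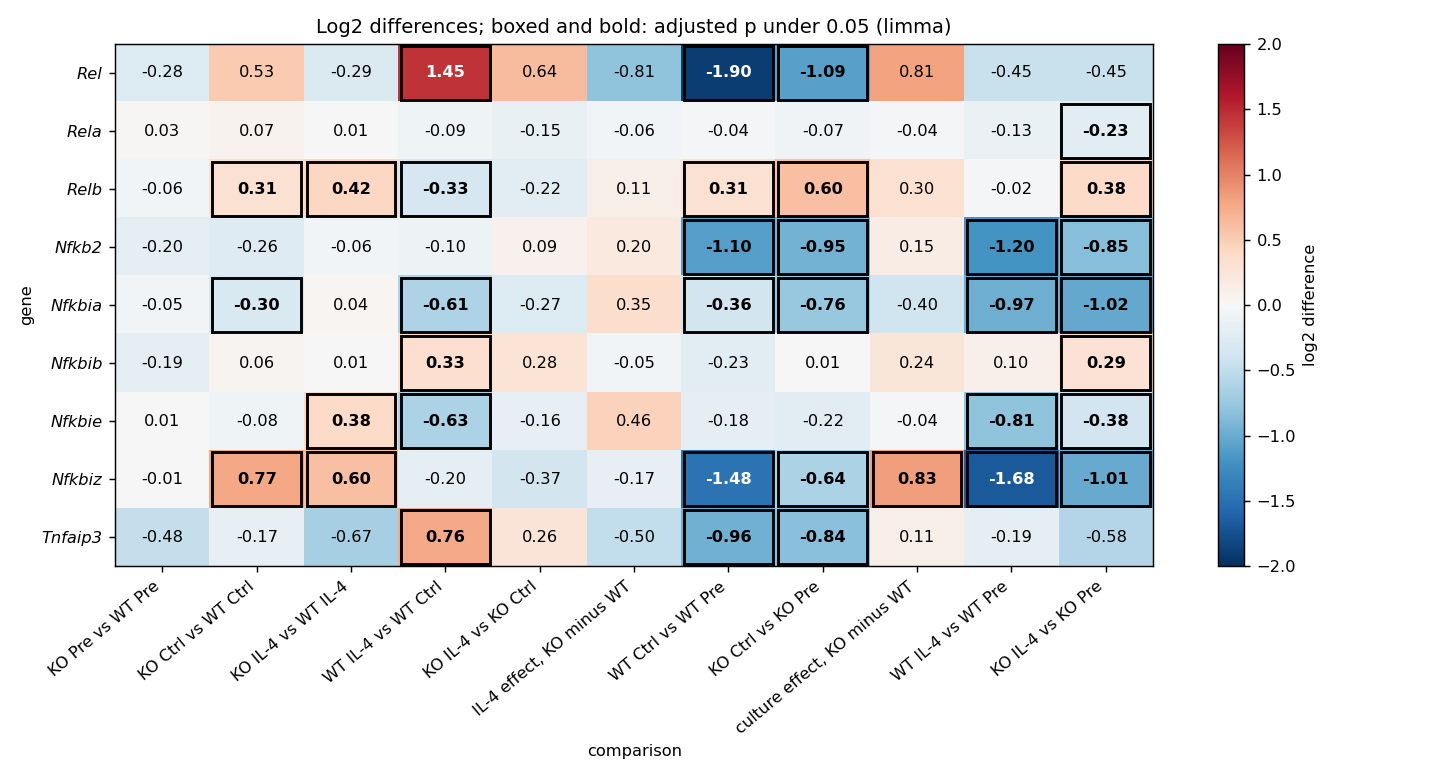
Each cell gives the log2 difference of a gene (rows) in 1 of the 11 comparisons (columns), coloured from blue (lower) to red (higher), and boxes mark an adjusted p under 0.05. The column of the genotypes before culture and that of IL-4 in knockout cells hold no box, and Nfkbiz is boxed in each genotype comparison after culture.

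Between the genotypes after culture, Nfkbiz was the gene with the clearest difference: it was higher in knockout cells both without and with IL-4. Without IL-4, 3 of 9 members were called, against 15.3% of all genes, and the medians were 0.06 for the members and 0.05 for all genes. The levels of Nfkbiz, already given, lay between -1.86 and -1.36 in WT_Ctrl and between -1.21 and -0.54 in KO_Ctrl, a difference of 0.77 ± 0.15, or 1.71-fold (adjusted p = 0.00058), without overlap. Nfkbia was lower in KO_Ctrl (-0.30 ± 0.09, 1.23-fold, adjusted p = 0.0253) and Relb higher (0.31 ± 0.11, 1.24-fold, adjusted p = 0.0485), both with overlapping groups. The call of Nfkbia was lost without WT_Ctrl array 7, 8 or 9 or KO_Ctrl array 6, 8 or 9 (adjusted p of 0.0504 to 0.0636), and that of Relb without WT_Ctrl array 8, 9 or 10 or KO_Ctrl array 7, 8 or 10 (0.0956 to 0.142). Both ended with quantile normalization and in a fit of the compared groups alone. The call of Relb also ended with median centring, the dark corner covariate and the mouse number as a block. That of Nfkbia also ended with all 40 arrays in the fit. Rel was not called (0.53 ± 0.20, adjusted p = 0.0842), but in 4 of 5 KO_Ctrl arrays it lay above all WT_Ctrl arrays, and without that of mouse 8 the difference was 0.75 ± 0.17 (adjusted p = 0.00355). Array weights, the dark corner covariate and leaving out wild-type mouse 6 also gave a call of Rel. Beside these values, the B cell marker list was lower in KO_Ctrl, with 7 of 9 genes called, and 2 of 8 erythroid markers were called higher.

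With IL-4, 3 of 9 members were called, all higher in knockout cells, against 18.4% of all genes; the medians were 0.01 for the members and -0.08 for all genes. Nfkbiz levels were -1.83, -1.59, -2.0, -1.78 and -1.73 in WT_IL4 and -1.42, -1.30, -1.31, -1.05 and -0.82 in KO_IL4 (0.60 ± 0.15, 1.52-fold higher, adjusted p = 0.00617), and the groups did not overlap. Nfkbie levels were -0.43, -0.59, -0.61, -0.23 and -0.38 in KO_IL4 against the -0.95 to -0.57 of WT_IL4 (0.38 ± 0.12, 1.30-fold higher, adjusted p = 0.0274), with a narrow overlap, and the call was lost without WT_IL4 array 8, 9 or 10 or KO_IL4 array 9 or 10 (adjusted p of 0.0636 to 0.0897). Relb was higher by 0.42 ± 0.11 (1.34-fold, adjusted p = 0.00733), a call that ended with quantile normalization. Tnfaip3 was not called (-0.67 ± 0.25, adjusted p = 0.0628): its levels were -0.87, -0.81, -0.82, -0.81 and -0.44 in KO_IL4, of which 4 lay below all 5 WT_IL4 arrays, and without WT_IL4 array 6 the difference was -0.78 ± 0.27 (adjusted p = 0.0416). Rel was not called either (-0.29 ± 0.20, adjusted p = 0.329). Nfkbia, Nfkbib, Rela and Nfkb2 differed by 0.04, 0.01, 0.01 and -0.06. In these groups 3 of 9 B cell markers were called lower and 1 higher in knockout cells, and 4 of 11 T cell markers lower and 2 higher. The 2 genotype comparisons after culture share their arrays with the IL-4 comparisons, so their values for a gene are not independent.

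Set against cells before culture, cells cultured with IL-4 had lower Nfkbia, Nfkbiz, Nfkbie and Nfkb2 in both genotypes, while Rel and Tnfaip3 were not called in either. In wild-type cells these 4 of 9 members were called, against 26.9% of all genes: Nfkbiz (-1.68 ± 0.15, 3.20-fold lower), Nfkb2 (-1.20 ± 0.17, 2.3-fold), Nfkbia (-0.97 ± 0.09, 1.96-fold) and Nfkbie (-0.81 ± 0.12, 1.75-fold), with adjusted p of 6.18e-06 or lower and no overlap. In knockout cells 7 of 9 were called, against 46.4% of all genes. Nfkbia (-1.02 ± 0.09), Nfkbiz (-1.01 ± 0.15), Nfkb2 (-0.85 ± 0.17) and Nfkbie (-0.38 ± 0.12) were lower, and Relb (0.38 ± 0.11) and Nfkbib (0.29 ± 0.10) higher; without KO_IL4 array 9 Nfkbib was not called (0.21, adjusted p = 0.0847). The calls of Nfkb2, Nfkbib and Nfkbie ended with quantile normalization, and those of Nfkbie and Relb with the dark corner covariate. Rela was called lower there (-0.23 ± 0.08, adjusted p = 0.0211), but its difference turned to 0.27 after quantile normalization, and the call was lost with median centring and without KO_Pre array 8 or 9 or KO_IL4 array 8 (adjusted p of 0.0539 to 0.0601). The difference of Rel was -0.45 ± 0.20 in each genotype (adjusted p = 0.109 in wild-type and 0.0698 in knockout cells), and in knockout cells the groups did not overlap. Tnfaip3 differed by -0.19 ± 0.25 in wild-type and -0.58 ± 0.25 in knockout cells (adjusted p = 0.640 and 0.0614), and it was called in knockout cells without KO_Pre array 9 (-0.69, adjusted p = 0.0401) or KO_Pre array 10 (-0.71, 0.0265). Without the arrays before culture numbered 10, 4 members remained called in wild-type and 8 in knockout cells, Tnfaip3 being the added one.

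The 3 probes of Relb did not tell the same story. Probe A_55_P2168741, designed on a GenBank sequence other than the RefSeq transcript used for the other 2, had a level of 0.70 ± 0.34 (SD, n = 5) in WT_Ctrl, -0.26 ± 0.28 in WT_IL4, 1.12 ± 0.56 in KO_Ctrl and 0.81 ± 0.47 in KO_IL4. Probes A_51_P389751 and A_55_P2168736 stayed between -0.08 and 0.26 in the same groups. For IL-4 in wild-type cells the first probe, A_55_P2168741, gave -0.96 ± 0.24 (adjusted p = 0.00461, over all probes). A_51_P389751 gave -0.02 ± 0.08 (adjusted p = 0.860), and A_55_P2168736 was called neither way (adjusted p = 0.973). For knockout against wild-type with IL-4 they gave 1.07 ± 0.24 (adjusted p = 0.00333), 0.10 ± 0.08 and 0.09 ± 0.09 (0.434 and 0.461), and for culture of wild-type cells the first gave 0.83 ± 0.24 (adjusted p = 0.00954) and the others were not called (0.977 and 0.410). All 3 probes were higher after culture of knockout cells without IL-4, by 1.08 ± 0.24, 0.32 ± 0.08 and 0.40 ± 0.09 (adjusted p = 0.000691, 0.00249 and 0.000416). In KO_Ctrl against WT_Ctrl the probes gave 0.42 ± 0.24, 0.26 ± 0.08 and 0.25 ± 0.09, of which only A_51_P389751 was called (adjusted p = 0.0342, against 0.275 and 0.0564).

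**Figure D4:**
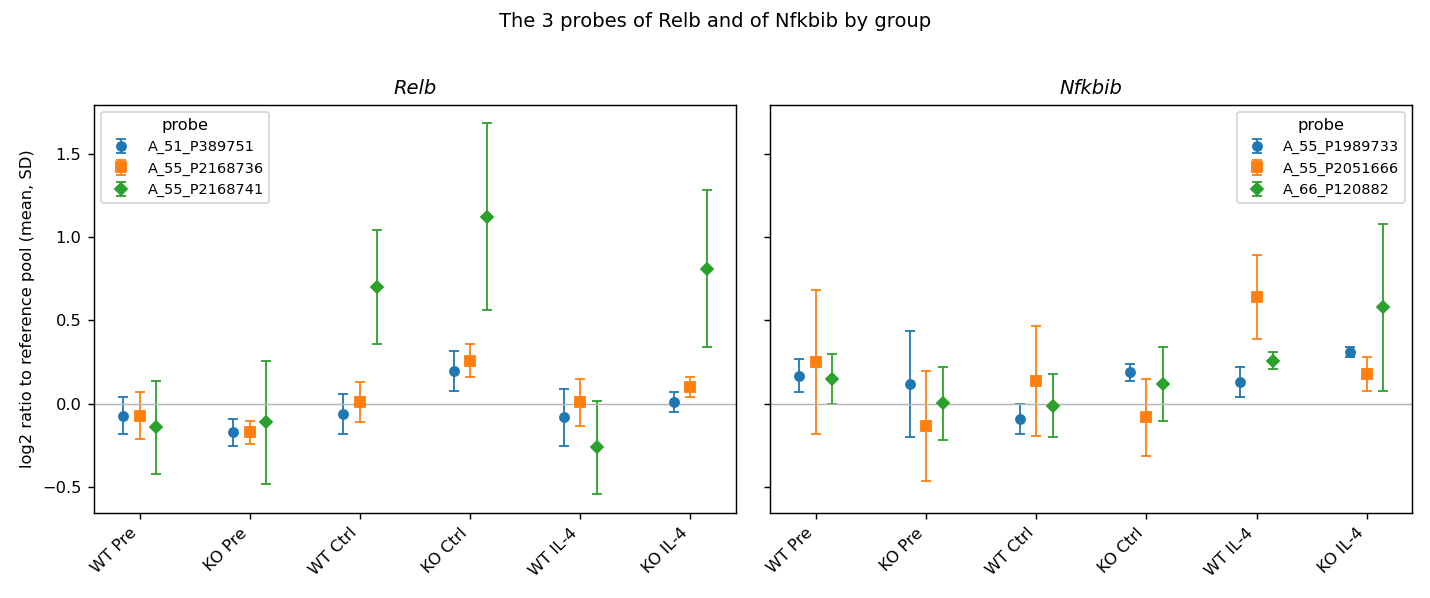
The mean log2 ratio to the reference pool and its SD are plotted for each of the 3 probes of Relb (left) and of Nfkbib (right) in the 6 groups (n = 10 before and n = 5 after culture). After culture the means of Relb probe A_55_P2168741 range from -0.26 to 1.12, and those of the other Relb probes stay between -0.08 and 0.26.

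The 3 probes of Nfkbib gave 0.22 ± 0.07, 0.50 ± 0.20 and 0.27 ± 0.16 for IL-4 in wild-type cells, of which A_55_P1989733 alone was called (adjusted p = 0.0229, against 0.0658 and 0.211). The same probe was called lower after culture of wild-type cells (-0.31 ± 0.07, adjusted p = 0.00138), higher in KO_Ctrl than in WT_Ctrl (0.28 ± 0.07, adjusted p = 0.00599) and for the difference of the culture effects (0.37 ± 0.10, adjusted p = 0.0188), where the mean of the probes was not called. Between the genotypes its probes went opposite ways. In KO_Ctrl against WT_Ctrl probe A_55_P2051666 gave -0.22 ± 0.20 and A_66_P120882 gave 0.13 ± 0.16 (adjusted p = 0.522 and 0.643). With IL-4 the probes gave 0.18, -0.46 and 0.31, and none was called (adjusted p = 0.0712, 0.107 and 0.173).

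The rest of the pathway was examined in 5 lists of genes, whose counts stand beside the share of all genes called in either direction. Of 10 measured IKK subunits and upstream kinases, 4 were higher and none lower with IL-4 in wild-type cells (26.9% of all genes), and 2 were higher in knockout cells (8.4%). They include Ikbke, an IKK-related kinase (1.44 ± 0.17 in wild-type and 1.35 ± 0.17 in knockout cells), Map3k8, a kinase that binds p105 (0.91 ± 0.14 and 0.80 ± 0.14), and Ikbkg, the regulatory subunit of IKK also known as NEMO (0.76 ± 0.14 in wild-type cells), with adjusted p of 0.000327 or lower. All of these were lower after culture without IL-4, where 4 were lower and 1 higher in wild-type (39.5% of all genes) and 5 lower and 2 higher in knockout cells (51%; Ikbke by 0.83 and 1.32, Map3k8 by 0.90 and 1.25, and Ikbkg by 0.59 and 1.03). With IL-4, 4 of the 10 were lower in knockout cells than in the wild-type (18.4% of all genes), among them Ikbke (-0.74 ± 0.17, adjusted p = 0.00454), Ikbkg (-0.68 ± 0.14, 0.00198) and Map3k8 (-0.50 ± 0.14, 0.0125); without IL-4 it was 1 (15.3% of all genes), Ikbke (-0.64 ± 0.17, 0.0118). The median of this list for IL-4 in wild-type cells was 0.25, beside 0.12 for all genes.

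Of 12 measured members of the CARMA1 complex and its adaptors, 6 were lower after culture without IL-4 in wild-type (39.5% of all genes) and 8 in knockout cells (51%), and none was higher. Malt1, the protease of that complex, was lower by 0.93 ± 0.21 and 1.09 ± 0.21, and Traf2, an adaptor of TNF receptors, by 0.75 ± 0.14 and 0.79 ± 0.14 (adjusted p of 0.0012 or lower). IL-4 lowered 2 of them in wild-type cells (26.9% of all genes), Traf5 (-0.50 ± 0.10) and Prkcb, the kinase that phosphorylates CARMA1 in B cells (-0.48 ± 0.11). Traf5 was also lower in KO_Ctrl than in WT_Ctrl (-0.69 ± 0.10, adjusted p = 1.39e-05) and in KO_IL4 than in WT_IL4 (-0.41 ± 0.10, 0.00439).

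Of the 14 receptors that signal to NF-kB, 11 were lower and 2 higher after culture of knockout cells without IL-4 (51% of all genes), and 6 lower and 4 higher in wild-type cells (39.5%); the list medians were -0.95 and -0.51. The difference of the culture effects was called for 6 of them (6.68% of all genes), all negative for knockout minus wild-type: the largest were Cd40 (-1.59 ± 0.18, adjusted p = 1.33e-05), the B cell receptor subunit Cd79b (-1.0 ± 0.19, 0.00123) and the BAFF receptor Tnfrsf13c (-0.99 ± 0.19, 0.00153). In the cultured cells 7 of 14 were lower and 1 higher in knockout cells without IL-4 (15.3% of all genes), and 6 lower and 1 higher with it (18.4%), Cd40 by -1.36 ± 0.13 and -1.15 ± 0.13. The receptor that was higher without IL-4, Il1r1, had the largest difference there (1.66 ± 0.53, limma adjusted p = 0.0317). With IL-4 5 of the 14 were lower and 2 higher in wild-type cells (26.9%), and 2 lower and 2 higher in knockout cells (8.4%), and Tlr2, a receptor for bacterial lipoproteins, had the largest difference among those called in both (-1.68 ± 0.14 and -1.36 ± 0.14). Cd79b also belongs to the B cell marker list, which was lower in the same groups.

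**Figure D5:**
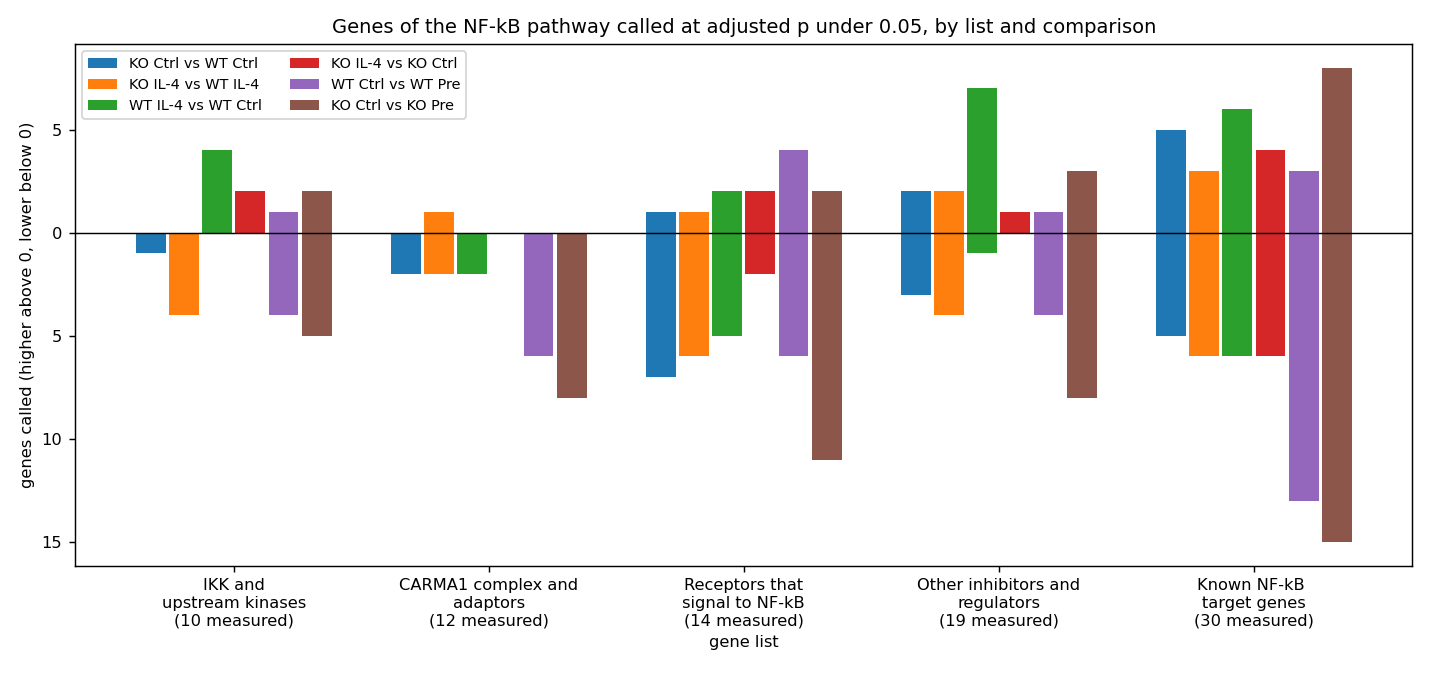
Bars give, for 5 gene lists of the NF-kB pathway, the number of genes called higher (above 0) and lower (below 0) in 6 comparisons, with the number measured under each name. Most bars of the receptors lie below 0, the lowest at 11 genes in knockout cells after culture, whereas IL-4 in wild-type cells gives 7 genes above and 1 below 0 among the other inhibitors.

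Of 19 other inhibitors and regulators, IL-4 raised 7 and lowered 1 in wild-type cells (26.9% of all genes) and raised 1 in knockout cells (8.4%). Otulin, a deubiquitinase that removes linear chains, was higher in both (1.08 ± 0.13 and 0.78 ± 0.13, adjusted p = 5.73e-07 and 0.000179). N4bp1 (1.23 ± 0.30) and the atypical nuclear IkB protein Bcl3 (0.47 ± 0.12) were higher in wild-type cells, and with IL-4 Bcl3 was lower in knockout cells (-0.73 ± 0.12, adjusted p = 0.00038). For Nfkbid, another nuclear IkB protein, the difference was -1.63 ± 0.24 after culture of wild-type cells (adjusted p = 1.31e-05), and it was higher in KO_IL4 than in WT_IL4 (0.84 ± 0.24, adjusted p = 0.0164). Culture without IL-4 lowered 4 and raised 1 of the 19 in wild-type (39.5% of all genes) and lowered 8 and raised 3 in knockout cells (51%), and without IL-4 2 were higher and 3 lower in knockout cells (15.3%).

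The 30 measured known targets of NF-kB did not move as 1 group. After culture without IL-4, 13 were lower and 3 higher in wild-type cells (39.5% of all genes) and 15 lower and 8 higher in knockout cells (51%). Il6, a cytokine, had the largest difference in each (4.85 ± 0.57 and 6.38 ± 0.57 higher). The early response factors Junb and Egr1 had differences of -3.13 ± 0.32 and -2.80 ± 0.24 in wild-type cells. IL-4 raised 6 and lowered 6 of the 30 in wild-type cells (26.9%) and raised 4 and lowered 6 in knockout cells (8.4%). In wild-type cells Il6 had the largest difference (2.69 ± 0.57, limma adjusted p = 0.000913), and Ccr7 was lower (-1.43 ± 0.28). Cd83, an activation marker, was higher in both genotypes (2.63 ± 0.25 and 1.44 ± 0.25). The chemokines Ccl3 and Ccl4 were lower in knockout cells (-2.65 ± 0.37 and -2.03 ± 0.39). Between genotypes without IL-4, 5 were higher and 5 lower in knockout cells (15.3% of all genes), with Ccl4 (2.86 ± 0.39), Ccl3 (2.83 ± 0.37) and Egr1 (1.91 ± 0.24) the largest, all with adjusted p of 1.05e-05 or lower. With IL-4, 3 were higher and 6 lower in knockout cells (18.4%), the largest being Egr1 (1.85 ± 0.24), Ccl4 (1.61 ± 0.39, limma adjusted p = 0.00532) and the chemokine Cxcl10 (-1.43 ± 0.32). The list medians were -0.01 and -0.05 for these 2 genotype comparisons, beside 0.05 and -0.08 for all genes.

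Over the 40 arrays, which share the 6 groups and the reference pool, the genes most like each member were found by Pearson's r as a description. Nfkb2 was most like Bcl2 (0.90), Tnk2 (0.89) and Malt1 (0.89), Rel most like Ptpn2 (0.92), Ube2f (0.92) and Ube3c (0.91), and Nfkbia most like Pacc1 (0.96), Lcp1 (0.95) and Cd1d2 (0.94). Nfkbiz followed Rasgef1b (0.95), Myc (0.92) and Adgre5 (0.92), and Tnfaip3 followed Ubap1 (0.87), Ube2j1 (0.86) and Csrnp1 (0.85). Relb was most like Car7 (0.95), Tsga8 (0.94) and Nrtn (0.94), and Nfkbie most like Cmtm7 (0.89), Slc44a2 (0.85) and Tmsb10 (0.85). Rela was most like Ythdc1 (0.83), Zcchc7 (0.80) and Zeb1 (0.79), and Nfkbib like Pim1 (0.77), Tuba1c (0.72) and Ciart (0.70). Among the members themselves, the highest r was 0.79 between Nfkbia and Nfkbiz, then 0.75 for Nfkbia with Nfkbie and for Rel with Tnfaip3, and the lowest -0.63 between Rel and the mean of the Relb probes. Probe A_55_P2168741 moves most in that mean, and no r per probe is given, so these Relb values need not hold for each probe.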

How the data were processed

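The values are log2 ratios of test sample (Cy5) to reference pool (Cy3), 1 per probe and array, as the authors deposited them in 1 table; per the series' design text, signals came from Agilent Feature Extraction and were analysed in GeneSpring GX, and the submitters' processing notes give Feature Extraction version 11.0.1.1. Which normalization and filters were applied within arrays is not stated in the sources used. Of 39485 probes, 56 were controls and 8804 had no symbol in the platform annotation. The 30625 named probes were averaged per gene (6807 genes had several), which gave 21892 genes without missing values; 30331 probes matched a RefSeq gene. No further normalization was applied.

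Linear models were fitted with limma 3.58.1 in R 4.3.3 (lmFit, eBayes) with Benjamini-Hochberg adjustment, on the 20 arrays before culture for KO_Pre against WT_Pre and on the 30 arrays of mice 6 to 10, which share an estimate of the spread, for the other 10 comparisons; the groups before culture thus entered these with n = 5. The scripts were tested on simulated data. These arrays have no read depth; their number sets the precision.

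The members, the gene lists and the rule for named genes were chosen with earlier results of these data known. Named were all members, up to 3 called genes with the largest difference in each pathway list (IKK and upstream kinases, CARMA1 complex and adaptors, receptors, other inhibitors, known targets) and comparison, the 3 genes most correlated with each member, and Dock10. Listed genes without a probe were left out.

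Cells of a mouse before and after culture are paired per the labels, except that the arrays numbered 10 go against this, as given above. Residuals from the group means were also correlated over genes between arrays of the same number. The mean was 0.227 for WT_Ctrl with WT_IL4 and 0.0869 for WT_Pre with WT_IL4. It was 0.0491 for KO_Ctrl with KO_IL4, 0.0326 for WT_Pre with WT_Ctrl, 0.0161 for KO_Pre with KO_IL4 and -0.00915 for KO_Pre with KO_Ctrl. In each of the latter only 2 of 5 arrays matched their own number best. This check does not bear out a pairing there. Before culture, arrays of the same number in the 2 genotypes had residual correlations of 0.225 to 0.543 over 10 pairs. Their mean was 0.368, against -0.0338 for other numbers, but only 3 of 10 matched their own number best. Arrays of a number share their sex in both genotypes, so this check cannot tell a pairing from a shared sex. The values printed come from the fit without the block; with it no member was called (Tnfaip3 -0.48 ± 0.26, adjusted p = 0.708). Between genotypes after culture without IL-4 the correlations were -0.171 to 0.169, so the numbers do not pair those arrays by this check. With IL-4 they were 0.0911 to 0.299, with a mean of 0.188 against -0.0469 for other numbers. By this check the numbers thus go with a pairing of the IL-4 arrays, although the printed values come from a fit without it.

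Alternatives were median centring, quantile normalization, tests per probe, a filter on the SD, trended and robust eBayes, array weights, other sets of arrays in the fit, a minimum log2 difference of 1, the dark corner ratio as a covariate, mouse blocks, and leaving out arrays.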

Additional observations from a re-analysis of the deposited data

Results flagged for a closer look

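In 54 combinations of a gene and a group, 4 had an array that stood apart from the others by Dixon's test, a rate near the 1 in 20 that chance gives. Rel was at -1.96 in KO_Ctrl of mouse 8, against -0.87 to -0.77 in the other 4 arrays. Nfkbib was at 0.66 in KO_IL4 of mouse 9, against 0.21 to 0.32. Nfkbie was at 0.19 in WT_Ctrl of mouse 7, against -0.36 to -0.22. Tnfaip3 was at -0.44 in KO_IL4 of mouse 10, against -0.87 to -0.81.

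The culture effect on Nfkbiz differed between the genotypes by 0.83 (knockout minus wild-type, limma adjusted p = 0.0146).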

How the results depend on the processing

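Of 2587 recomputed member differences, 2337 kept their direction and their side of the threshold. Among differences called in either setting, direction turned for Rela with quantile normalization (0.39 for WT_Ctrl against WT_Pre, 0.37 for KO_Ctrl against KO_Pre, 0.27 for KO_IL4 against KO_Pre) and for Relb probe A_51_P389751 (-0.004 for WT_Ctrl against WT_Pre). The cause of these and the following changes was not tested, except that the SD filter kept only 4 of the 9 members and the minimum difference removes genes by construction. Members called were as follows. KO_Ctrl against WT_Ctrl had 1 with quantile normalization, the SD filter or the compared groups alone, and 0 with a difference of at least 1. KO_IL4 against WT_IL4 had 1 with the SD filter and 0 with that minimum. WT_IL4 against WT_Ctrl had 3 with quantile normalization or the dark corner covariate, 2 with the SD filter and 1 with the minimum. KO_IL4 against KO_Ctrl had 2 with array weights or without wild-type mouse 6, and 1 with all 40 arrays, the dark corner covariate, or the mouse as a replicate block or random block. The IL-4 difference between genotypes had 2 with array weights. WT_Ctrl against WT_Pre had 3 with the minimum or the dark corner covariate, and KO_Ctrl against KO_Pre 1 and 2. The culture difference between genotypes had 2 with centring, tests per probe, all 40 arrays, the dark corner covariate, a random block or without wild-type mouse 6, 3 with array weights, and 0 with the SD filter or the minimum. WT_IL4 against WT_Pre had 2 with the SD filter or the minimum. KO_IL4 against KO_Pre had 3 with quantile normalization, 2 with the SD filter or the minimum and 4 with the dark corner covariate. Leaving out 1 array gave 1 to 3 members (KO_Ctrl against WT_Ctrl), 2 to 4 (KO_IL4 against WT_IL4), 4 to 6 (IL-4, wild-type), 0 to 1 (IL-4, knockout), 0 to 2 (their difference), 5 to 6 (culture, wild-type), 6 to 7 (culture, knockout), 1 to 2 (their difference), and 6 to 8 (KO_IL4 against KO_Pre). With the mouse as a block, the calls that changed are those given above for Tnfaip3 and Rel; as a random block, Nfkbia was also called for the culture difference between genotypes (-0.40, adjusted p = 0.0469). When the mouse numbers shared by the genotypes entered as a block, the adjusted p of Relb in KO_Ctrl against WT_Ctrl was 0.0512. In KO_IL4 against WT_IL4 the same 3 members stayed called: Relb, Nfkbie and Nfkbiz (adjusted p = 0.00866, 0.0228 and 0.00527).

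Counts over all genes moved as well. With quantile normalization, KO_Ctrl against WT_Ctrl went from 3350 to 674 called genes, KO_IL4 against WT_IL4 from 4032 to 1401, WT_IL4 against WT_Ctrl from 5899 to 3654, KO_IL4 against KO_Ctrl from 1838 to 333 and the culture difference from 1462 to 365. The dark corner covariate gave 4614 in place of 8654 (culture, wild-type), 5477 in place of 11155 (culture, knockout) and 5714 in place of 10166 (KO_IL4 against KO_Pre). The compared groups alone gave 1923 (KO_Ctrl against WT_Ctrl), 1168 (KO_IL4 against KO_Ctrl) and 123 in place of 261 (IL-4 difference). Array weights gave 1548 for the IL-4 difference and 3387 for the culture difference, and the random block and the fit without wild-type mouse 6 gave 467 and 460 for the former. In the order KO_Ctrl and KO_IL4 against wild-type, IL-4 in wild-type, IL-4 in knockout and the IL-4 difference, the SD filter left 1184, 2116, 2324, 821 and 159 and the minimum 634, 1180, 1390, 499 and 169. For culture in wild-type, in knockout and their difference, and for WT_IL4 and KO_IL4 against Pre, they left 5242, 6137, 518, 2475 and 5578, and 2966, 4484, 536, 1794 and 3728. The share of called genes that were higher moved with quantile normalization from 44.9% to 19.3% (KO_Ctrl against WT_Ctrl), 46.5% to 61.2% (KO_IL4 against WT_IL4), 57.5% to 42.3% (IL-4, wild-type), 51% to 84.7% (IL-4 difference), 38.8% to 50.6% (culture, knockout), 33.2% to 19.5% (culture difference) and 40.1% to 51% (KO_IL4 against KO_Pre). For culture in wild-type cells it moved from 33.3% to 54.4%, and with centring to 50.5%. For WT_IL4 against WT_Pre centring moved it from 47% to 63.9%.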
